A study of Mus musculus with 4 samples.

Results

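δ cells are the somatostatin-secreting endocrine cells of the pancreatic islet, and they are described here after exposure to the cytokine interleukin-1β (IL-1β) and without it. They were selected on their own hormone UMIs, where a UMI is a molecular tag that counts 1 captured transcript. A kept barcode had 200 to 4000 detected genes and at most 12% of UMIs from mitochondrially encoded genes. A δ cell was a kept barcode in which Sst, the somatostatin gene, took at least 2% of UMIs and more than Ppy, while Ins1 and Ins2 together took under 2% and Gcg under 1%. By this rule 59 of 1521 kept cells of the untreated library and 155 of 2018 kept cells of the IL-1β library were δ cells, 214 of 3539 in the pair. The study took islets from C57BL/6 mice, exposed them to cytokines outside the body, dissociated them and sequenced single cells by the 10x Genomics 3′ method. The 4 libraries were an untreated one and one each after 6 h with IL-1β, with interferon-γ (IFNγ) or with both. Per the study's methods the mice were adult males, named C57BL6/J there, and the islets of 8 mice were pooled before they were divided among the 4 samples. The labels do not give the time in culture of the untreated islets. There was 1 library per condition, so no difference below has a replicate check or a test, and every 95% interval covers counting error only.

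Somatostatin from δ cells restrains insulin release from neighbouring β cells and glucagon release from α cells, so δ cells act as a local brake within the islet. IL-1β binds a receptor made of IL1R1 and IL1RAP, which passes the signal through MYD88 and IRAK kinases to the IκB kinase complex. That complex marks the inhibitor IκBα for degradation and frees the NF-κB transcription factors, whose targets include chemokines, adhesion molecules and the genes for their own inhibitors. In islets this pathway is best known for inducing the nitric oxide synthase gene Nos2 in β cells.

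The markers of δ cells were present in both groups. Rbp4, which encodes the retinol carrier and is high in mouse δ cells, was detected in 100% of untreated and 98.1% of IL-1β δ cells, against 23.4% and 34.1% of all other kept cells. Hhex, a transcription factor needed for δ cells, was detected in 74.6% and 42.6% of δ cells and in 3.28% and 3.11% of the others. Ptprz1, a receptor tyrosine phosphatase, was detected in 47.5% and 48.4% of δ cells and in 1.03% and 2.79% of the others. The label therefore fitted both sets of cells, with Hhex the marker that was seen least alike in them. Sst took a median of 7.82% of UMIs in untreated δ cells, with a range of 2.30% to 25.4%, and a median of 6.68% in IL-1β δ cells, with a range of 2.06% to 19.96%. Near the limit, 4 untreated and 15 IL-1β δ cells had Sst between 2% and 3% of UMIs. Another 1 and 4 cells met the remaining conditions with Sst between 1% and 2%, the highest at 1.93% and 1.98%.

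Depth differed between the libraries and bears on every comparison. Untreated δ cells had a median of 8696 UMIs and 2974 genes per cell, and IL-1β δ cells a median of 4817 UMIs and 2024 genes. Median mitochondrial shares were alike, at 4.61% and 5.13%. In all, 502367 UMIs from untreated and 799959 from IL-1β δ cells entered the comparison. A gene with no UMI could therefore be present at up to 5.97 counts per 1000000 UMIs (CPM) in the untreated sum and 3.75 CPM in the IL-1β sum, the level of 3 UMIs. δ cells made up 3.88% of kept untreated cells (interval 2.97% to 4.98%) and 7.68% of kept IL-1β cells (6.56% to 8.93%), both by the exact binomial method. The upper limit on detected genes removed 843 untreated and 146 IL-1β barcodes and lowered the δ cells from 77 to 59 and from 157 to 155, so the 2 shares rest on limits that cut the libraries unequally. The pair shared 4 barcodes, none of them δ cells.

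Upstream sequences of several genes described below hold a match to the NF-κB consensus. Matches to that consensus, searched by name on both strands in the 250 bases before each RefSeq start (GRCm38.p6), were found in 1204 of 27025 promoters (4.46%) and in 352 of the 6514 measured genes that had an entry (5.40%). Among the 15 genes with the highest ln fold change under IL-1β (a scale explained below), 12 had an entry and 4 held a match. Among the 15 with the lowest, 9 had an entry and 0 held one. In the gene lists used below, matches were found for 8 of 17 genes of the NF-κB list and 7 of 18 genes of the chemokine list. Matched genes of the chemokine list included Vegfa, which was not higher with IL-1β, and Il6, which had no UMI in δ cells of either library. The stretches below come from the 4 genes with a match among the 15 highest. They also come from 3 further genes that were higher with IL-1β, chosen after their values were seen. Each is written 5′ to 3′ on the gene's own strand, with the matched bases in capitals.
Cxcl1: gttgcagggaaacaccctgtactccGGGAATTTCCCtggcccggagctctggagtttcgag
Cxcl2: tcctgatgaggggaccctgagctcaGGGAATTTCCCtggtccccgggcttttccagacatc
Nfkbia: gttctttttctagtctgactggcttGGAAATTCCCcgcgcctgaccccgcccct
Ier3: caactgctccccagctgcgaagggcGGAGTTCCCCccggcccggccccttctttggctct
Csf1: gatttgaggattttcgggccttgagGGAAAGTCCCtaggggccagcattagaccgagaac
Ccl20: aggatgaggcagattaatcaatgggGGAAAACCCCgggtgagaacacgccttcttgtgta
Tnip1: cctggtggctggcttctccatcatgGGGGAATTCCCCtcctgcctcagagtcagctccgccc

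These stretches lie at chr5:90891149-90891209 (+ strand) for Cxcl1, chr5:90903777-90903837 (+) for Cxcl2, chr12:55492648-55492701 (−) for Nfkbia and chr17:35821596-35821655 (+) for Ier3. Those of the other genes lie at chr3:107760589-107760648 (−) for Csf1, chr1:83116661-83116720 (+) for Ccl20 and chr11:54962962-54963023 (−) for Tnip1. The matched bases began 71 bases before the start of Cxcl1 and 97 before that of Cxcl2, where the same run of capitals holds 2 overlapping matches in each gene. They began 29 bases before the start of Nfkbia, 92 before Ier3, 154 before Csf1, 80 before Ccl20 and 58 before Tnip1. The capitals of Cxcl1 and Cxcl2, which neighbour each other on chromosome 5, are the same letters. A match is a description of the sequence only, and binding was not measured.

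Of 31053 genes in the files, 8193 were detected in at least 10% of the δ cells of either library and were compared, leaving out the 5 hormone genes used by the rule and the mitochondrial genes. Of these, 2293 were measured only through the deeper untreated cells and 270 only through the IL-1β cells. A gene measured only through 1 library had to be seen more often there, so counts over the measured members of a list describe and do not support a difference. Such members measured only through the IL-1β cells were 4 in the NF-κB list, 4 in the list of survival adaptors, 7 among chemokines, 2 among acute-phase genes and 6 among guanylate-binding proteins. They were 2 each in the lists of IL-1 receptor, antioxidant, adhesion, unfolded protein, heat shock and apoptosis genes, and 1 or 0 in every other list. Differences are given on 2 scales. The first is the ln fold change, the difference between libraries in the natural logarithm of the mean number of UMIs per 10000 plus 1, which keeps low genes near 0, and the second is the ratio of CPM from summed UMIs. On the ln scale 139 genes (1.7%) were higher with IL-1β by at least 0.5 and 70 genes (0.854%) were lower by at least 0.5. On the ratio scale 726 genes (8.86%) were at least doubled and 1152 genes (14.1%) at least halved. The 15 genes with the highest and the 15 with the lowest ln fold change are called named genes. The median gene was at an ln fold change of −0.01 and a log2 ratio of −0.07. More genes passed the ln limit upward and more passed the ratio limit downward. The shares of 8.86% doubled and 14.1% halved are the ones to set beside the counts of every list below.

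**Figure D1:**
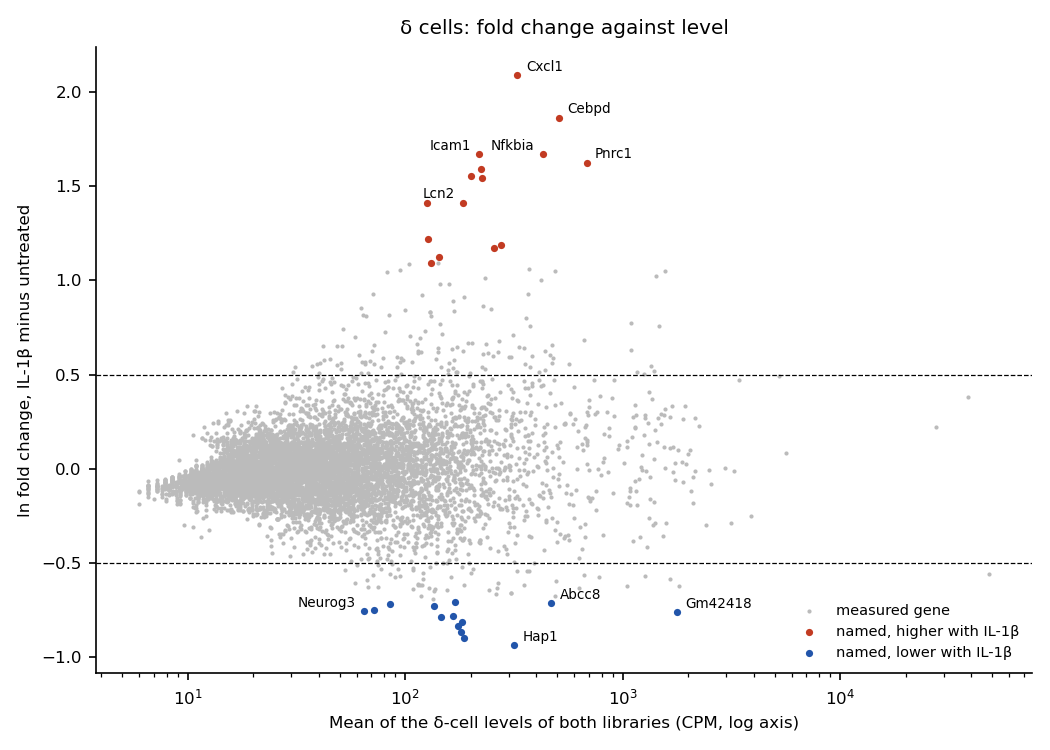
Each point is a measured gene, with the mean of its 2 δ-cell levels in CPM on a log axis and its ln fold change, IL-1β minus untreated, on the other axis; coloured points are the named genes described in the text. The higher genes extend to 2.09 (Cxcl1) and the lower ones shown in colour to −0.93 (Hap1).

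Of 21 genes of the NF-κB pathway itself 16 were measured, 10 at least doubled (62.5%, against 8.86% of all measured genes) and 0 at least halved (against 14.1%). Of the 16, 4 were measured only through the IL-1β cells and 5 passed the ln limit, and their median ln fold change was 0.28. Nfkbia, which encodes IκBα and lies at chr12:55489410-55492647 (−, GENCODE M21 on GRCm38), was at 73.7 CPM in untreated and 786 CPM in IL-1β δ cells. The ratio was 10.7 (7.66 to 15.3), and the share of cells with a UMI was 47.5% and 90.3%. Most IL-1β δ cells thus carried this transcript, although those cells were sampled at the lower depth. The subunit genes differed among themselves: Nfkb1 was at 41.8 and 223 CPM and Relb and Nfkb2, both without a UMI in untreated δ cells, reached 83.8 and 36.3 CPM, at least 14.0-fold and 6.07-fold higher. Rela, the partner of the Nfkb1 product in the common NF-κB dimer, was at 15.9 and 28.8 CPM and did not reach a doubling. Among the inhibitors, Tnip1 was at 11.9 and 111 CPM, Tnfaip3, which encodes the deubiquitinase A20, at 0 and 37.5 CPM, and Nfkbiz, which encodes a nuclear IκB protein, at 27.9 and 213 CPM. The kinase genes Chuk, Ikbkb and Ikbkg, whose products form the IκB kinase complex, stayed between a halving and a doubling.

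Of 16 survival adaptors and regulators of cytokine signalling 13 were measured, 7 at least doubled (53.8%) and 0 at least halved, with a median ln fold change of 0.34. Birc3, which encodes the ubiquitin ligase cIAP2, had 2 UMIs in untreated and 200 in IL-1β δ cells, 3.98 and 250.01 CPM, a ratio of 62.8 (17.2 to 522), and was detected in 3.39% and 67.1% of cells. Ier3, an early response gene linked to survival, was at 43.8 and 468 CPM, a ratio of 10.7 (6.95 to 17.2). Gadd45b, a stress response gene, had 2 and 111 UMIs and was at 3.98 and 139 CPM. Zc3h12a, which encodes the RNA-degrading protein regnase-1, had no UMI in untreated δ cells and 78.8 CPM with IL-1β. Socs3, a suppressor of cytokine receptor signalling, was at 31.8 and 113 CPM. The close relatives Socs2 and Cish were at 19.9 and 13.8 CPM and at 23.9 and 15 CPM, on the other side of equality.

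Several chemokines and growth factors had high levels with IL-1β that came from few cells. The list held 26 genes, of which 25 were in the files and only 9 were measured. Of those 9, 8 were at least doubled (88.9%) and 0 at least halved. Cxcl1, a neutrophil-attracting chemokine at chr5:90891241-90893115 (+), had 1 UMI in untreated δ cells and 524 in IL-1β δ cells, 1.99 and 655 CPM. That is a ratio of 329 with a counting interval of 58.8 to 13022, and 1.69% and 36.8% of cells had a UMI. Its 5 highest cells held 41.8% of its UMIs in the IL-1β library. Cxcl2, the neighbouring chemokine, had 0 and 320 UMIs and was at least 67.0-fold higher, yet only 13.5% of IL-1β δ cells had a UMI and the 5 highest cells held 68.1% of them. A high library level of these chemokines therefore came from a minority of cells. Csf1, the macrophage growth factor, was spread more widely, at 1.99 and 206 CPM and in 1.69% and 43.2% of cells. Csf3, the granulocyte growth factor, was at 0 and 165 CPM, and Ccl20, which attracts cells bearing CCR6, at 0 and 169 CPM. Vegfa, the vascular growth factor, was the measured member that was not doubled, at 149 and 108 CPM. Il6, Il33, Csf2, Cxcl9 and Cxcl12 had no UMI in either library's δ cells.

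C/EBP factors and acute-phase genes included 2 of the transcripts seen in most cells. Of 18 genes 6 were measured, 4 at least doubled (66.7%) and 0 at least halved, with a median ln fold change of 1.01. Cebpd, a transcription factor of the acute-phase response at chr16:15887286-15891031 (+), was at 79.6 and 941 CPM, a ratio of 11.8 (8.60 to 16.7), in 25.4% and 90.3% of cells. Its relative Cebpb was at 79.6 and 473 CPM, in 44.1% and 76.8% of cells. Lcn2, which encodes an iron-sequestering antimicrobial protein, had 3 and 291 UMIs, at 5.97 and 364 CPM, but was found in 14.8% of IL-1β δ cells, and the 5 highest held 60.5% of its UMIs. Cebpd and Cebpb were thus spread over the cells and Lcn2 was not. Defb1, a defensin gene, was at 47.8 and 213 CPM, in 8.47% and 38.1% of cells. Saa1, Saa2, Hp and Orm1, secreted acute-phase proteins of the liver, had no UMI.

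Other named genes that were higher did not belong to a list. Pnrc1, a nuclear receptor coactivator, was at 167 and 1200.1 CPM, a ratio of 7.18 (5.74 to 9.08), and its detection was 78.0% and 96.1%. Plet1, which encodes a surface protein of epithelial progenitors and lies at chr9:50494525-50505482 (+), had 0 UMIs in untreated δ cells and 359 in IL-1β δ cells, at least 75.1-fold higher, and was found in 40.6% of the latter. Gm45159 was at 19.9 and 268 CPM and 4930539E08Rik at 17.9 and 244 CPM. Both are annotated genes whose function is not stated here.

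**Figure D2:**
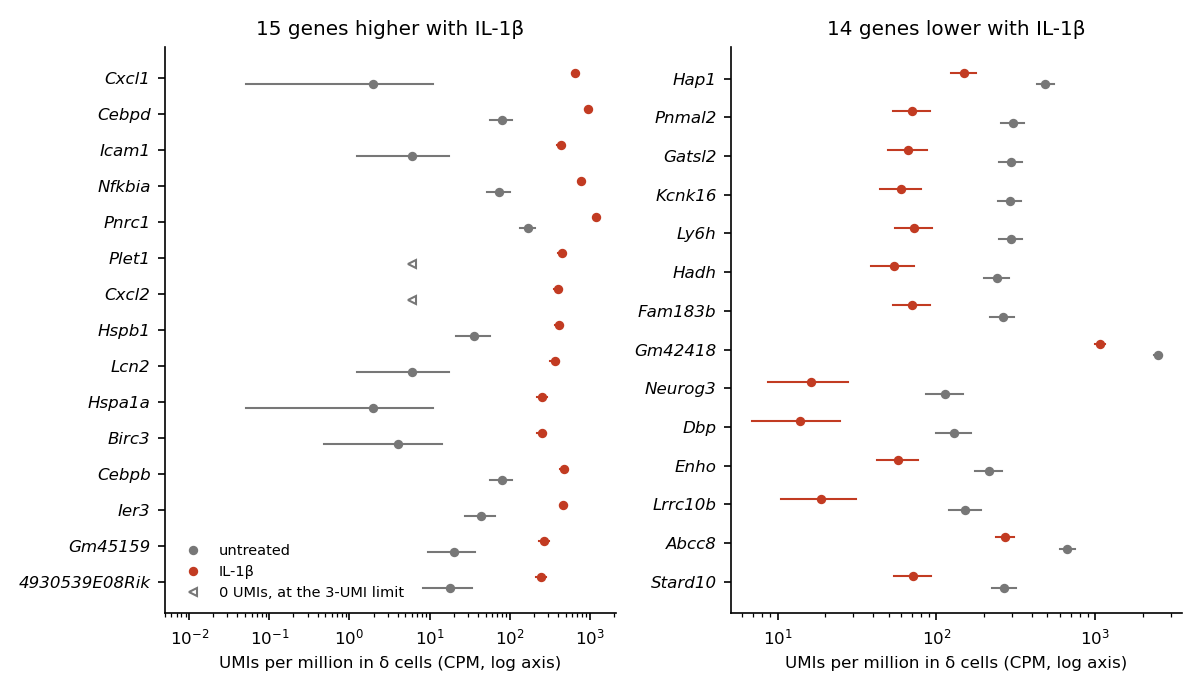
Each row is a named gene, with its level in δ cells in CPM on a log axis in the untreated and the IL-1β library; bars are 95% intervals for counting error, and open triangles mark a gene with 0 UMIs placed at the level of 3 UMIs. In the left panel the 15 higher genes lie at or below 167 CPM in untreated δ cells and between 244 and 1200.1 CPM with IL-1β, and in the right panel the 14 lower genes drawn include Hap1 at 486 and 149 CPM.

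Of 12 genes of nitric oxide and arginine metabolism 10 were measured, 2 at least doubled (20%, against 8.86% of all measured genes) and 2 at least halved (20%, against 14.1%), of which 1 was halved after thinning, with a median ln fold change of −0.08. Nos2, the inducible nitric oxide synthase at chr11:78920787-78960254 (+), had a UMI in 0 of 59 untreated δ cells, which allows a share of up to 5.08% (the limit of 3 counts in 59 cells), and in 37 of 155 IL-1β δ cells, 23.9% (17.4% to 31.4%, exact binomial). The share was 21.2% in the 118 IL-1β δ cells thinned to 4000 UMIs, and 0 of 55 untreated cells had a UMI after the same thinning. Its level was 127.5 CPM, at least 21.4-fold above the untreated limit. Nos2 was thus detected in a minority of IL-1β δ cells and in no untreated one. Slc7a1, an importer of arginine, was at 31.8 and 75 CPM. Gch1, the first enzyme of synthesis of the cofactor tetrahydrobiopterin, was at 577 and 661 CPM in 93.2% and 94.2% of cells, and Spr, the last enzyme of that route, was at 59.7 and 28.8 CPM.

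Of 15 genes for the IL-1 receptor and its adaptors 9 were measured, 2 at least doubled (22.2%, against 8.86% of all measured genes) and 1 at least halved (11.1%, against 14.1%), with 1 doubled without the upper gene limit, 0 halved after thinning and a median ln fold change of 0.02. Il1r1, the signalling receptor, was at 87.6 and 90.0 CPM, a ratio of 1.03 (0.697 to 1.53), in 47.5% and 34.8% of cells, so the δ cells of both libraries carried its transcript. Il1r2, the decoy receptor, had no UMI, and Il1rap, the co-receptor, had 0 and 5 UMIs, below what this depth resolves. Irak3, which encodes a kinase-like inhibitor of the pathway, was at 7.96 and 52.5 CPM, and Myd88 at 9.95 and 22.5 CPM. Sigirr, a receptor that dampens IL-1 signalling, was at 17.9 and 7.50 CPM on 9 and 6 UMIs.

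Of 16 adhesion molecules and immune receptors 10 were measured, 7 at least doubled (70%) and 0 at least halved. Icam1, the ligand of leukocyte integrins at chr9:21015985-21028817 (+), had 3 UMIs in untreated and 346 in IL-1β δ cells, 5.97 and 433 CPM, a ratio of 72.4 (24.6 to 353), and was found in 3.39% and 66.5% of cells. Tlr2, a receptor for bacterial lipoproteins, was at 21.9 and 121 CPM. Cd47, the signal that protects cells from phagocytosis, was at 295 and 654 CPM in 86.4% and 90.3% of cells, and Cd44, a hyaluronan receptor, at 35.8 and 156 CPM. Fas, a death receptor, was at 0 and 31.3 CPM. Ifngr2, a chain of the IFNγ receptor, was at 19.9 and 72.5 CPM, while the other chain, Ifngr1, was at 27.9 and 31.3 CPM. Vcam1 had no UMI, and Cd274, which encodes PD-L1, had 2 and 1.

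Genes commonly counted among interferon targets differed among themselves. Of 14 guanylate-binding proteins and immunity-related GTPases 8 were measured, 6 at least doubled (75%) and 0 at least halved, with a median ln fold change of 0.36. Gbp2 was at 5.97 and 50 CPM and Gbp9 at 0 and 62.5 CPM. The Gbp genes are close relatives, so UMIs can be split between them by the read counting. With IFNγ alone Gbp2 stood at 862 CPM in δ cells and with both cytokines at 2638 CPM, so the level after IL-1β was far below that of either other library. Of 24 STAT, IRF and antiviral genes 14 were measured, 8 at least doubled (57.1%) and 0 at least halved; after thinning to 4000 UMIs 4 were doubled and 1 halved, and without the upper gene limit 5 were doubled. Isg20, an exonuclease, was at 123 and 371 CPM, and Ifitm2, a membrane protein that restricts viruses, at 133 and 331 CPM. Irf1, a transcription factor of both the interferon and the NF-κB response, was at 49.8 and 45.0 CPM. Of 16 antigen presentation genes 15 were measured, 5 at least doubled (33.3%) and 0 at least halved, with 2 doubled after thinning and 3 without the upper gene limit. Psme2, a proteasome activator, was at 187 and 531 CPM, and H2-K1, a class I heavy chain, at 802 and 1524 CPM in 98.3% and 94.8% of cells, just short of a doubling.

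Antioxidant and metal-binding genes were mixed. Of 27 genes 23 were measured, 5 at least doubled (21.7%) and 1 at least halved (4.35%), with a median ln fold change of −0.00. Sod2, the mitochondrial superoxide dismutase, was at 161 and 575 CPM. Gpx1, a glutathione peroxidase, was at 147 and 594 CPM, a ratio of 4.03 (3.15 to 5.22), in 67.8% and 83.9% of cells. Hmox1, heme oxygenase 1, was at 9.95 and 56.3 CPM and Mt2, a metallothionein, at 67.7 and 169 CPM. Their relatives did not share these values: Sod1 was at 111 and 133 CPM, Gpx3 at 804 and 451 CPM, and Gpx4, which protects membranes from lipid peroxides, at 372 and 164 CPM, the halved member.

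Among stress programmes the heat shock chaperones had the highest median ln fold change, 0.54. All 12 were measured, 6 at least doubled (50%) and 1, Bag3, at least halved. Without the cells that had a Hspa1a UMI, 2 were doubled and 0 halved, and Bag3 was also not halved with the mitochondrial limit at 20%, with centring on the median gene or with a stricter hormone rule. Hsp90aa1, the inducible HSP90, was at 754 and 2081 CPM, a ratio of 2.76 (2.47 to 3.09), in 98.3% and 97.4% of cells. Hspb1, a small heat shock protein, was at 35.8 and 416 CPM, in 20.3% and 24.5% of cells and in 9.09% and 21.2% of cells thinned to 4000 UMIs, with 57.1% of the UMIs in its 5 highest cells. Its ln fold change was 1.54, and 1.001 after thinning. Hspa1a, an inducible HSP70, was at 1.99 and 251 CPM, with 71.1% of the UMIs in the 5 highest of its 24 cells. The ln fold change of Hspa1a was 1.41, and 0.923 after thinning. Hspa1b, whose sequence is nearly identical, was at 1.99 and 101 CPM, and the division of UMIs between the pair is uncertain. Of 25 genes of the unfolded protein and integrated stress response 24 were in the files and 23 measured, 4 at least doubled (17.4%, against 8.86% of all measured genes) and 1 at least halved (4.35%, against 14.1%, and 0 after thinning). The chaperone Hspa5 was at 1003 and 1218 CPM, Dnajb9 at 207 and 496 CPM, and Ddit3, the factor CHOP, at 23.9 and 91.3 CPM. Of 15 immediate early genes, which also respond to tissue dissociation, 11 were measured, 3 at least doubled (Fosb, Fosl2 and Maff; 27.3%) and 0 at least halved, with a median ln fold change of −0.11. Fos was at 151 and 100 CPM, Jun at 677 and 451 CPM and Egr1 at 613 and 550.0 CPM. Of 20 BCL2 family and caspase genes 10 were measured, 4 at least doubled (among them Mcl1, Bcl2l11 and Casp8; 40%, against 8.86% of all measured genes) and 2 at least halved (Bcl2 and Casp9; 20%, against 14.1%), with 1 halved after thinning. Of the 10, 2 were measured only through the IL-1β cells and 2 only through the untreated cells. Of 16 genes of glycolysis 12 were measured, 2 at least doubled (16.7%) and 0 at least halved, with 2 halved after thinning. Hk2, an inducible hexokinase, was at 0 and 63.8 CPM, and Pfkp, a phosphofructokinase, at 65.7 and 145 CPM.

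**Figure D3:**
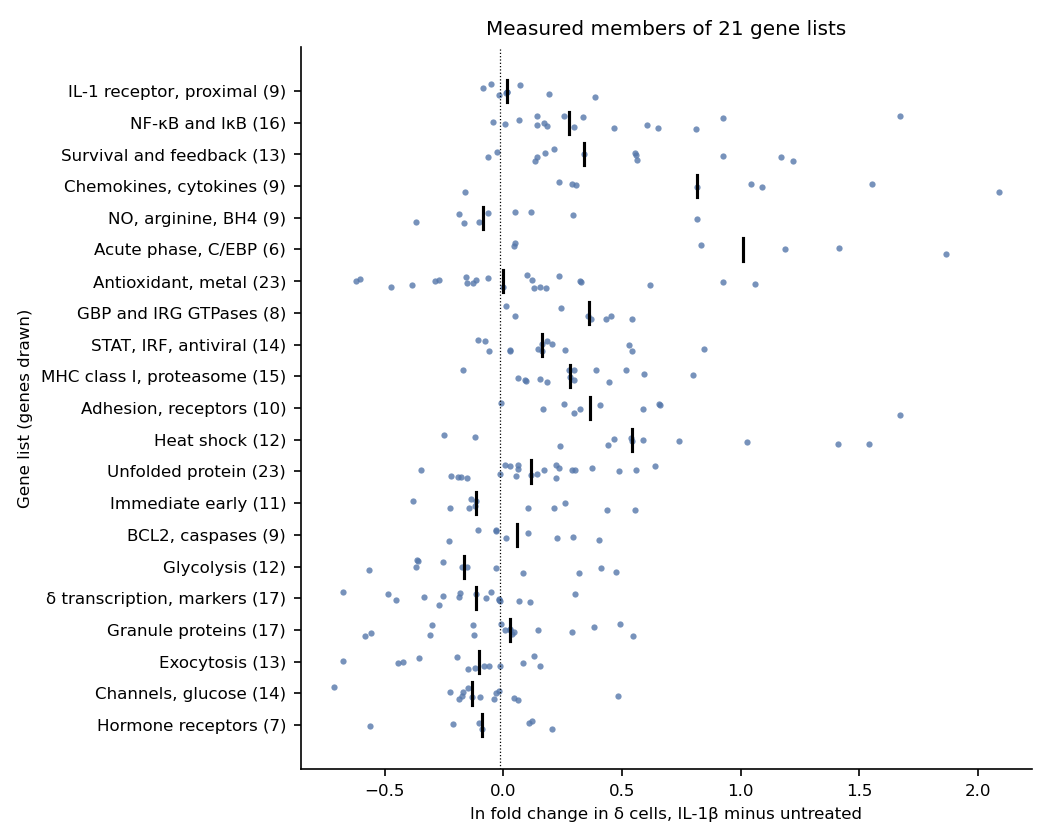
Each point is a measured gene of 1 of the 21 lists, named on the vertical axis with the number of genes drawn, at its ln fold change in δ cells, IL-1β minus untreated; a bar marks the list's median. The medians run from −0.16 for glycolysis to 1.01 for acute-phase genes.

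Transcription factors and markers of δ cells included 3 members that were at least halved and 0 that were doubled among 17 measured of 20, a share of 17.6% against 14.1% over all measured genes. Hhex, at chr19:37434810-37440731 (+), was at 265 and 125 CPM, a ratio of 0.472 (0.361 to 0.617). Isl1, a transcription factor of all islet endocrine cells at chr13:116298281-116309689 (−), was at 665 and 318 CPM, 2.09-fold lower, in 96.6% and 65.8% of cells. Frzb, a secreted WNT antagonist, was at 113 and 35 CPM. The rest of the list lay between: Pax6 was at 301 and 350.0 CPM, Neurod1 at 115 and 104 CPM, Pdx1 at 139 and 77.5 CPM, and Rbp4 at 4242 and 3508 CPM. Ptprz1 was on the other side, at 87.6 and 166 CPM. Neurog3, the factor of endocrine progenitors and one of the named genes, was at 113 and 16.3 CPM, 6.98-fold lower, in 49.2% and 6.45% of cells.

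Granule cargo and prohormone processing genes mostly stayed between a halving and a doubling. Of 19 granule genes 17 were measured, 1 at least doubled (Vgf) and 0 at least halved, and after thinning 0 were doubled. Pcsk2, a prohormone convertase, was at 1945 and 1978 CPM, Chgb, a granin, at 3957 and 6538 CPM, and Iapp, islet amyloid polypeptide, at 32377 and 45254 CPM. Pyy, which encodes peptide YY, was at 62008 and 35256 CPM. Of 16 exocytosis genes 14 were measured, 2 at least doubled (14.3%, against 8.86% of all measured genes) and 3 at least halved (21.4%, against 14.1%), and after thinning 1 was doubled and 6 were halved. Cplx2, complexin 2, which clamps and promotes vesicle fusion, was at 183 and 53.8 CPM, Rab3a, a GTPase of docked vesicles, at 71.7 and 15 CPM and Syt7, a calcium sensor, at 149 and 73.8 CPM. Stx1a, a membrane fusion protein, was on the other side, at 7.96 and 21.3 CPM on 4 and 17 UMIs.

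Genes of glucose entry, ion channels and second messengers were 15 measured of 20, 2 at least doubled (13.3%, against 8.86% of all measured genes) and 3 at least halved (20%, against 14.1%). After thinning 1 was doubled and 6 were halved, without the upper gene limit 6 were halved, and with the mitochondrial limit at 20% or hormone-free totals 5 were halved. Abcc8, which encodes the sulfonylurea receptor of the ATP-sensitive potassium channel, was at 667 and 271 CPM, 2.46-fold lower, in 96.6% and 67.1% of cells. Its channel partner Kcnj11 was at 61.7 and 37.5 CPM. Slc2a1, the glucose carrier GLUT1, was at 15.9 and 76.3 CPM. Of 21 hormone, nutrient and transmitter receptors 7 were measured, 1 at least doubled (Sstr3; 14.3% against 8.86% of all measured genes) and 3 at least halved (Gipr, Casr and Gria2; 42.9% against 14.1%). Of the 7, 2 were measured only through the untreated cells, and after thinning 2 were halved. Of the 3, only the glutamate receptor gene Gria2 had more than 10 UMIs, at 137 and 33.8 CPM. Ffar4, a fatty acid receptor of δ cells, was at 99.5 and 120 CPM, and Ghsr, the ghrelin receptor, at 25.9 and 26.3 CPM. Crhr1, Galr1 and Gabbr2 had no UMI.

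The other named genes that were lower belonged to no list. Hap1, a huntingtin-associated trafficking protein, was at 486 and 149 CPM, 3.27-fold lower. Kcnk16, the potassium channel TALK-1, was at 291 and 60.0 CPM, 4.84-fold lower, and Hadh, a mitochondrial enzyme of fatty acid oxidation, at 239 and 53.8 CPM, 4.44-fold lower. Enho, which encodes the peptide adropin, was at 213 and 57.5 CPM, Stard10, a lipid transfer protein, at 267 and 71.3 CPM, and Dbp, a clock-controlled transcription factor, at 129 and 13.8 CPM. The remaining ones, Pnmal2, Gatsl2, Ly6h, Fam183b and Lrrc10b, stood at between 151 and 303 CPM in untreated and between 18.8 and 72.5 CPM in IL-1β δ cells. Each gene of this paragraph was found in at least 55.9% of untreated δ cells. Gm42418, which overlaps ribosomal RNA sequence and so can collect its reads, was at 2470.3 and 1069 CPM. It was seen in 100% of δ cells of both libraries.

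Detection of the response genes was also counted cell by cell. In cells thinned to 4000 UMIs, which left 55 untreated and 118 IL-1β δ cells, the genes of the NF-κB, chemokine and acute-phase lists, 64 in all, were counted per cell. Untreated cells had a median of 3 such genes, with a range of 0 to 8, and IL-1β cells a median of 10, with a range of 2 to 20. Of the IL-1β cells, 82 (69.5%) lay above the highest untreated cell and 1 lay at or below the untreated median. The distributions overlapped between 2 and 8 genes. Counted alone, the NF-κB list put 63 IL-1β cells above every untreated cell, the chemokine list 32 and the acute-phase list 7, while 18, 27 and 8 IL-1β cells were at or below the untreated median of these lists. Cells differ here within 1 library, so these counts describe the cells of that library.

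**Figure D4:**
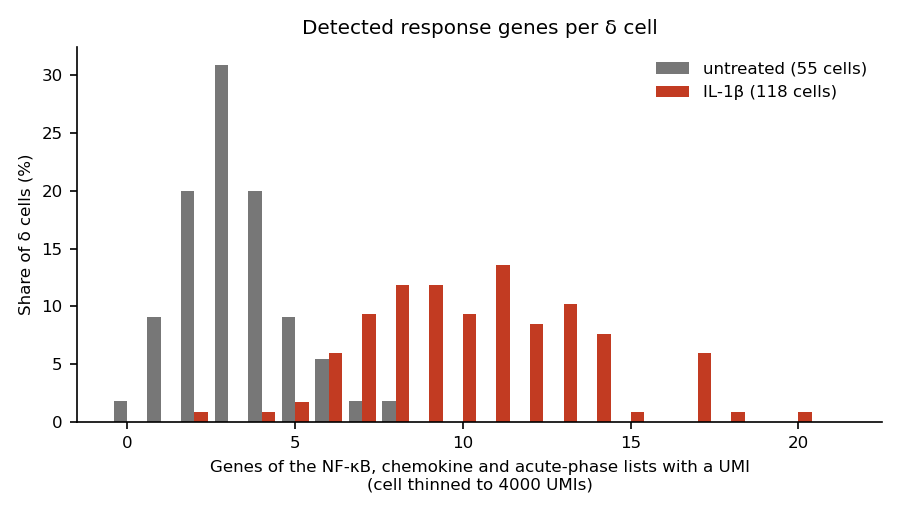
The horizontal axis is the number of genes of the NF-κB, chemokine and acute-phase lists with a UMI in a δ cell thinned to 4000 UMIs, and bars give the share of δ cells in percent, for 55 untreated and 118 IL-1β cells. The untreated bars end at 8 genes and 82 of the 118 IL-1β cells lie beyond them.

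Within the IL-1β library, the cells with Nos2 were compared with those without, and likewise for Hspa1a. Among the 37 δ cells with a Nos2 UMI, 56.8% had Cxcl1 and 100% had Nfkbia. Among the 118 without, 30.5% had Cxcl1 and 87.3% had Nfkbia. Cxcl1 was at 1189 CPM with and 467 CPM without Nos2. The level of Nfkbia was 757 CPM (644 to 885) with and 796 CPM (726 to 872) without Nos2. Lcn2 was found in 10.8% of the cells with Nos2 and 16.1% of those without. Hspa1a was found in 13.5% of the cells with Nos2 and 16.1% of those without, but its level was 33.6 CPM (13.5 to 69.1) in the former and 328 CPM (284 to 378) in the latter. As given above, 71.1% of its UMIs in the library lay in 5 cells. Hspb1 was at 206 and 490.4 CPM and Hsph1 at 62.3 and 213 CPM with and without Nos2. The intervals of their shares overlapped. Hspb1 was found in 13.5% (4.54% to 28.8%) of cells with and 28.0% (20.1% to 37.0%) without Nos2. Hsph1 was found in 24.3% (11.8% to 41.2%) and 36.4% (27.8% to 45.8%). In the library 57.1% of Hspb1 UMIs lay in 5 cells. Of the 24 cells with Hspa1a, 50% had Dnajb1 and 62.5% had Hsph1, against 19.1% and 28.2% of the other 131, and 20.8% of them had Nos2, against 24.4%. Levels of other genes went both ways in this split. Cxcl1 was at 1508 CPM with and 504 CPM without Hspa1a, and Nfkbia at 975 and 753 CPM. The share with Cxcl1 differed little, at 41.7% (22.1% to 63.4%) of cells with and 35.9% (27.7% to 44.7%) without Hspa1a. In the library 41.8% of Cxcl1 UMIs lay in 5 cells. Cebpd was at 708 CPM with and 982 CPM without Hspa1a, and Sod2 at 400 and 606 CPM. Median depths were 5047 UMIs with and 4769.5 without Nos2, and 4513 with and 4842 without Hspa1a.

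β and α cells of the same 2 libraries, selected on Ins1 with Ins2 and on Gcg, give the setting for these values (1149 and 1014 β cells, 90 and 334 α cells). Cebpd, Nfkbia and Birc3 had ln fold changes in δ cells of 1.86, 1.67 and 1.22, in β cells of 1.81, 1.36 and 1.05 and in α cells of 2.06, 1.48 and 1.03. Plet1 was at 449 CPM in IL-1β δ cells and at 41.8 CPM in β and 51.4 CPM in α cells, with ln fold changes of 1.59, 0.29 and 0.29. Ccl20 was at 169, 6.41 and 9.84 CPM in IL-1β δ, β and α cells and had no UMI in any of the 3 untreated. Hk2 was at 63.8, 0.450 and 15.7 CPM. These 3 genes, singled out after their values were seen, had a higher level in IL-1β δ cells than in β or α cells. Nos2 ran differently, with a UMI in 23.9% of δ, 30.9% of β and 8.38% of α cells of the IL-1β library, at median depths of 4817, 8568 and 6394 UMIs. Gatsl2 was lower in all 3, with ln fold changes of −0.87, −0.79 and −0.78. Ly6h, at −0.81 in δ cells, was found in under 2% of β and α cells and could not show a difference there. Hormone genes took 42.4% and 23.5% of β-cell UMIs, 22.2% and 17.6% of α-cell UMIs and 12.9% and 9.59% of δ-cell UMIs without and with IL-1β, which raises the CPM of all other genes most in IL-1β β cells. No test of a difference between cell types could be made with 1 library a side.

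**Figure D5:**
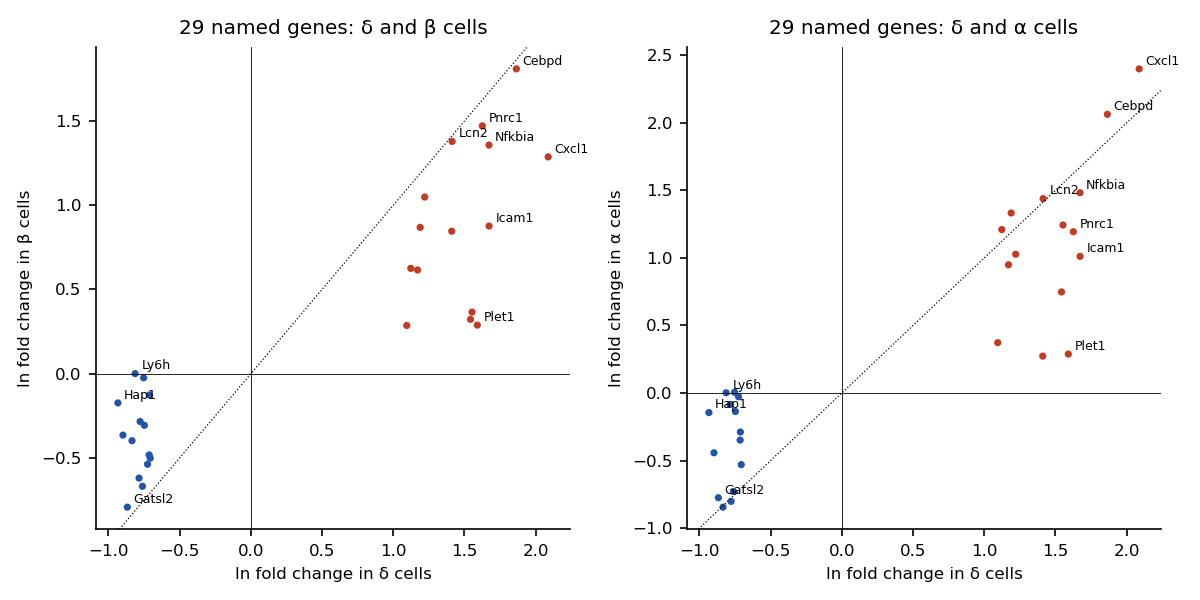
Each point is 1 of 29 named genes at its ln fold change in δ cells and, on the vertical axis, in β cells (left) or α cells (right), all from the same untreated and IL-1β libraries; the diagonal marks equal values. Cebpd lies near the diagonal in both panels, while Plet1 (1.59 in δ cells, 0.29 in β and α cells) lies away from it. The ln scale keeps low genes near 0, and by ratio of CPM Plet1 was higher with IL-1β in β and α cells as well.

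The other 2 libraries held 172 δ cells after IFNγ and 97 after both cytokines, and their values stand beside those of the pair. Cxcl1 was at 0.793 CPM with IFNγ and 485 CPM with both, and Nfkbia at 89.7 and 1424 CPM. Icam1 was at 29.4 and 1754 CPM. Nos2 was found in 0 of 172 cells with IFNγ and in 59.8% of cells with both. The count of 0 allows a share of up to 1.74%, the limit of 3 counts in 172 cells. Lcn2 was at 3.17 CPM with IFNγ and 40.6 CPM with both, and Plet1 at 11.9 and 73.5 CPM, both below the 364 and 449 CPM with IL-1β alone. The share of cells with Lcn2 was 14.8% (9.64% to 21.4%) with IL-1β alone and 10.3% (5.06% to 18.1%) with both. With IL-1β alone, the 5 highest cells held 60.5% of Lcn2 UMIs. Plet1 was found in 40.6% of cells with IL-1β alone and 17.5% with both. Hspa1a was at 277 CPM with IFNγ and 1313 CPM with both, and Hspb1 at 183 and 350.1 CPM, against 251 and 416 CPM with IL-1β. Shares of cells with a UMI were ordered otherwise. Hspa1a was found in 6.40% of δ cells with IFNγ, 66.0% with both and 15.5% with IL-1β. Hspb1 was found in 17.4%, 41.2% and 24.5%. Hhex was at 263 CPM with IFNγ and 71.9 CPM with both, and Isl1 at 478 and 169 CPM. Both genes were at lower levels in the 2 libraries with IL-1β than in the other two.

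Transcripts of other cell types were low in the δ cells, with the following exceptions. The 6 endothelial markers summed to 3.98 and 116 CPM, led by Flt1, and 87 of their 93 UMIs in the IL-1β library came from 1 cell of 9193 UMIs in which all 6 were detected. That cell had no UMI of Cxcl1, Lcn2 or Csf3, 3 of Icam1 and 7 of Nfkbia. The 8 macrophage markers summed to 102 and 31.3 CPM, led by C1qa at 89.6 and 16.3 CPM, with 5 of the 8 at 0 in both, among them C1qb, C1qc, Lyz2 and Tyrobp. C1qa had a UMI in 50.8% and 6.45% of δ cells and in 50.6% and 21.1% of β cells. The 6 ductal markers summed to 450 and 659 CPM, led by Krt18 at 259 and 504 CPM, while Krt19 had 1 UMI in each library. Krt7 went the other way in detection, with a UMI in 76.3% of untreated and 37.4% of IL-1β δ cells. The 6 acinar markers summed to 430 and 255 CPM, led by Cela1. Mesenchymal markers summed to 3.98 and 6.25 CPM, Schwann cell markers to 17.9 and 16.3 CPM, and the 5 lymphocyte markers had 0 UMIs in both. Markers of β cells other than insulin summed to 43.8 and 23.8 CPM and those of α cells other than glucagon to 171 and 135 CPM. The PP-cell genes Ppy and Pyy were abundant in the δ cells of both libraries, with medians of 2.13% and 1.68% of UMIs for Ppy. Insulin UMIs, which can reach any droplet as free RNA, took 0.531% and 0.123% of δ-cell UMIs against 36.9% and 14.8% over all kept cells, a ratio of 1.44% and 0.828%. The rule capped insulin in δ cells and left out 6 untreated and 21 IL-1β cells with enough Sst but at least 2% insulin, so these values are low by selection and give no bound on free RNA. The part of these transcripts in the differences above was not tested, except that leaving out the cell with endothelial markers left 139 genes higher and 72 lower on the ln scale.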

How the data were processed

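Single-cell RNA was measured in 4 islet libraries, and the δ cells of the untreated and IL-1β libraries were compared. The deposited matrices hold raw UMI counts per gene and barcode, which the authors made with Cell Ranger on the mm10 genome (matrix header version 3.0.0). The labels and the study's methods name different versions of the 10x kit. The analysis used scanpy 1.11.5, pandas 2.3.3, scipy 1.17.1 and numpy 2.4.6 under Python 3.11.15, with matplotlib 3.10.9 for figures. Cells were filtered and selected by the rule given in the report, and UMIs were summed per library or averaged over cells as UMIs per 10000 with a pseudocount of 1. A doublet caller (Scrublet, expected rate 0.05) marked 11 untreated and 22 IL-1β cells, 0.723% and 1.09% of kept cells and 0 δ cells, and none was removed. With 1 library per group no test was run. Intervals are 95% and exact (Poisson, binomial or conditional binomial for a ratio) and cover counting error only. A gene at 0 UMIs was set to 3 UMIs for a lower bound. Named genes were the 15 with the highest and the 15 with the lowest ln fold change among measured genes. Those whose direction turned on thinning or without hormone genes in the totals were left out. So were those whose level was mostly free RNA by an estimate from the insulin share. That estimate is low by selection of the δ cells, so this step does not clear the named genes of free RNA. Members of the gene lists are described besides these. The δ-cell rule, the gene lists and the comparisons were chosen with earlier results of these data known. Gene positions came from GENCODE M21, where 31011 of 31053 identifiers matched, and promoters from RefSeq on GRCm38.p6, whose table is not complete. The scripts were tested on simulated data. The alternatives tried were other limits on genes, mitochondrial share and hormones, thinning, hormone-free totals, another pseudocount, other gene filters, centring, summed UMIs, doublet removal and 2 cell exclusions. A few genes that these steps covered are not reported here.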

Additional observations from a re-analysis of the deposited data

Results flagged for a closer look

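For 3 genes of the lists, the β-cell and the δ-cell ratio of IL-1β to untreated CPM lay on opposite sides of 1, intervals included. The difference between cell types was not tested, since there was 1 library a side. Bag3, a co-chaperone of HSP70, was 4.36-fold higher with IL-1β in β cells (3.78 to 5.03), at 15 and 65.3 CPM, and had a ratio of 0.496 in δ cells (0.297 to 0.822), on 38 and 30 UMIs, and of 2.95 in α cells. Its δ-cell ratio was above the halving limit under 4 of the alternative settings. Isl1 was 1.63-fold higher in β cells (1.53 to 1.73), at 123 and 200.03 CPM, and had a ratio of 0.478 in δ cells (0.404 to 0.564) and of 1.20 in α cells. Syt7 was 1.46-fold higher in β cells (1.37 to 1.55), at 139 and 203 CPM, and had a ratio of 0.494 in δ cells (0.345 to 0.704) and of 0.433 in α cells. The β-cell share with a UMI went the other way for Isl1, at 77.7% and 69.0%, and for Syt7, at 84.2% and 72.5%, with fewer UMIs per cell in the IL-1β library. Hormone genes took 42.4% of β-cell UMIs untreated and 23.5% with IL-1β. With them left out of the totals, an alternative added after seeing the data, the β-cell ratios were 3.28 for Bag3 (2.84 to 3.78), 1.23 for Isl1 (1.15 to 1.30) and 1.09 for Syt7 (1.03 to 1.16), and the δ-cell ratios 0.478, 0.460 and 0.476.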

How the results depend on the processing

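Under 13 alternative settings, 334 of 390 values of the 30 named genes moved by less than their counting interval allows and 56 moved, 29 of them with a pseudocount of 0.1 and 10 with thinning to 4000 UMIs. None changed direction, which for thinning and hormone-free totals the choice of named genes fixes. Of 462 list counts, 397 stayed within 1.5 times and 65 moved. With a pseudocount of 0.1, 873 genes were higher and 1188 lower by at least 0.5 on the ln scale, since a smaller pseudocount lets low genes through. Among genes seen in at least 25% of cells, a smaller set, 302 were doubled and 430 halved. A stricter hormone rule left 39 untreated δ cells. Thinning gave 140 genes higher and 91 lower on the ln scale, 784 doubled and 888 halved. The share of IL-1β δ cells with Nos2 lay between 21.2% and 25.5% over the settings run. Leaving out the 24 IL-1β cells with Hspa1a gave 136 higher and 76 lower, and leaving out the cell with endothelial markers 139 and 72. These 2 exclusions, and hormone-free totals in β and α cells, were chosen after seeing the data. No replicate could be left out, and no paired analysis was possible because each group had 1 library. The IL-1β δ cells had the lower depth per cell, so a gene may go unseen in more of them. Their summed UMIs were more, at 799959 against 502367. In the sums the limit for a gene with 0 UMIs was therefore lower with IL-1β, at 3.75 against 5.97 CPM.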
